A study of Homo sapiens with 18 samples.

Results

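The experiment described here is a 5-hour exposure of drug-tolerant persister cells to trichostatin A (TSA), an inhibitor of histone deacetylases. Its members are 6 of the 18 RNA-seq libraries of the series, chosen by group label: 3 DTP_TSA libraries and 3 DTP libraries, each named a, b and c. All were made from PC9, an established human lung adenocarcinoma cell line that carries an activating EGFR deletion. The DTP cells had received 1 µM erlotinib, an EGFR kinase inhibitor, for 8 days, with drug and medium renewed every 3 days, and are the cells that outlasted the drug. The DTP_TSA cells had the same 8 days followed by 50 nM TSA for 5 hours, with the medium left in place. Whether the DTP cells received the TSA solvent is not given in the sources used here, and the DTP protocol also speaks of cells sorted for aldehyde dehydrogenase activity, which no library title names. Untreated growth, PC9 without erlotinib, was represented by 3 parental_DMSO libraries (solvent) and 3 parental_TSA libraries (50 nM TSA for 5 hours). They were compared to ask whether the response of DTP cells differed. The other libraries of the series were PC9 cells given 1 µM erlotinib for 24 hours or 50 µM carboplatin for 72 hours. All 18 libraries entered the main fit, so every group also helped to set its low-count filter, scaling and spread. No source used here says whether libraries of a group came from separate cultures, so the tests below weigh differences against library-to-library spread, which may be technical.

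Histone deacetylases remove acetyl groups from lysines of histones and of other proteins, and most act inside corepressor complexes that are brought to DNA by repressors such as REST. Acetylated histone tails are written by lysine acetyltransferases and read by bromodomain proteins, some of which recruit the elongation kinase P-TEFb. TSA blocks the zinc-dependent deacetylases and leaves the NAD-dependent sirtuins aside. Persister cells have been described as unusually dependent on deacetylases and on repressive chromatin over repeats such as LINE-1 (L1).

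Of the 6 libraries, 5 held between 76101016 and 84650552 gene reads, and DTP_TSA a held 32139343. Spike-in RNA made up 46.0% of all reads in DTP_TSA a and at most 0.562% in the other 5, and rRNA repeats made up 7.09% against at most 1.89%. DTP_TSA a listed 15124 genes with a read, against 21202 and 21239 in DTP_TSA b and c and 19713 to 19788 in DTP. At 1 CPM (counts per 1000000 TMM-scaled gene reads) or more the numbers were closer, with 13564 to 13589 genes in the DTP_TSA libraries and 13128 to 13156 in DTP. Its highest correlation of log counts with another library of its group was 0.971, against 0.999 for DTP_TSA b and c. Results are therefore given with all 6 libraries, and some that move are also given without DTP_TSA a. A list count given only once can still differ without that library. For example, 18 genes of the H3K9 methylation list below fell without it and 15 with it. In the DNA replication list 20 fell without it and 22 with it. Spike-in reads per 100 gene reads were 0.552, 0.530 and 0.565 in DTP and 99.9, 0.577 and 0.551 in DTP_TSA. The log2 difference was 2.53 with all libraries (exact permutation test, two-sided, p = 0.3) and 0.04 without DTP_TSA a (p = 0.5), where 3 libraries against 3 allow no p under 0.1. A fall in the number of cells of a type and a fall in RNA per cell cannot be told apart in bulk RNA.

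TSA changed 9915 of 17641 tested genes in DTP cells (56.2%). Of these, 4508 rose (25.6% of genes tested) and 5407 fell (30.7%) at an adjusted p under 0.05 (edgeR's quasi-likelihood test with Benjamini-Hochberg adjustment, which stands behind every adjusted p given here). The large changes were mostly increases, with 979 genes rising and 270 falling by over 2 on the log2 scale, and 493 rising and 46 falling by over 3. A total of 391 genes were under 1 CPM in every DTP library and at or over it in every DTP_TSA library, and 114 went the other way. Without DTP_TSA a, 5137 of 18094 genes rose (28.4%) and 5601 fell (31.0%); 4129 of the risen and 5066 of the fallen genes were shared between the fits, and none was called in opposite directions. With spike-in reads as library sizes and DTP_TSA a left out, the median log2 change of all genes moved from −0.04 to 0.11, 4446 genes rose (24.6%) and 2582 fell (14.3%), and the share of calls that were increases went from 47.8% to 63.3%. Counts given as under spike-in scaling come from this fit without DTP_TSA a. The list counts below are to be read against 25.6% of genes rising and 30.7% falling (24.6% and 14.3% under spike-in scaling). A count near these shares describes the members and is no result about the list. Of the genes named below, SIRT1, MTA3, BRD8, CCNT2, TAP1, TAPBP, PMAIP1, BIRC2, HSPA8, HSP90AB1, MOV10, ADAR, APOBEC3F and SERPINB2 kept their sign under it and were not called.

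The largest increases took genes from below 1 CPM, or a few CPM, to well above 10 CPM in most cases. DACT3, a dishevelled-binding antagonist of Wnt signalling, stood at 0.262, 0.233 and 0.224 CPM in DTP and at 27.9, 26.8 and 25.6 CPM in DTP_TSA, a log2 change of 6.79 ± 0.22 (SE, 3 libraries per group, adjusted p = 4.82e-13). SLC2A4, the insulin-responsive glucose transporter GLUT4, went from 0.274, 0.159 and 0.132 CPM to 16.5, 16.99 and 17.6 CPM, a log2 change of 6.48 ± 0.24. SYT11, a synaptotagmin of vesicle traffic, went from 0.785, 0.540 and 0.685 CPM to 38.1, 31.4 and 32.9 CPM, a log2 change of 5.67 ± 0.26. For each of these genes the 3 DTP_TSA libraries lay close together, DTP_TSA a included. Groups that did not overlap and at least 10 CPM in the higher group were conditions of the choice. The separation therefore describes these genes and is not support for their change. Others among the 15 largest increases were TPPP, a tubulin polymerization protein (5.71), HPCAL4, a neuronal calcium sensor (5.66), MAP1A, a microtubule-associated protein of neurons (5.36), VWA5B2 (5.26), EFR3B, a membrane anchor for a phosphatidylinositol kinase (5.18), LIX1L (4.69), EPHB3, an ephrin receptor (4.43), HAP1, the huntingtin-associated protein (4.32), KDR, the VEGF receptor of endothelium (4.12), TMEM169 (4.02) and PLEKHH2 (3.94). Their log2 changes were all positive in the parental comparison too.

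**Figure D1:**
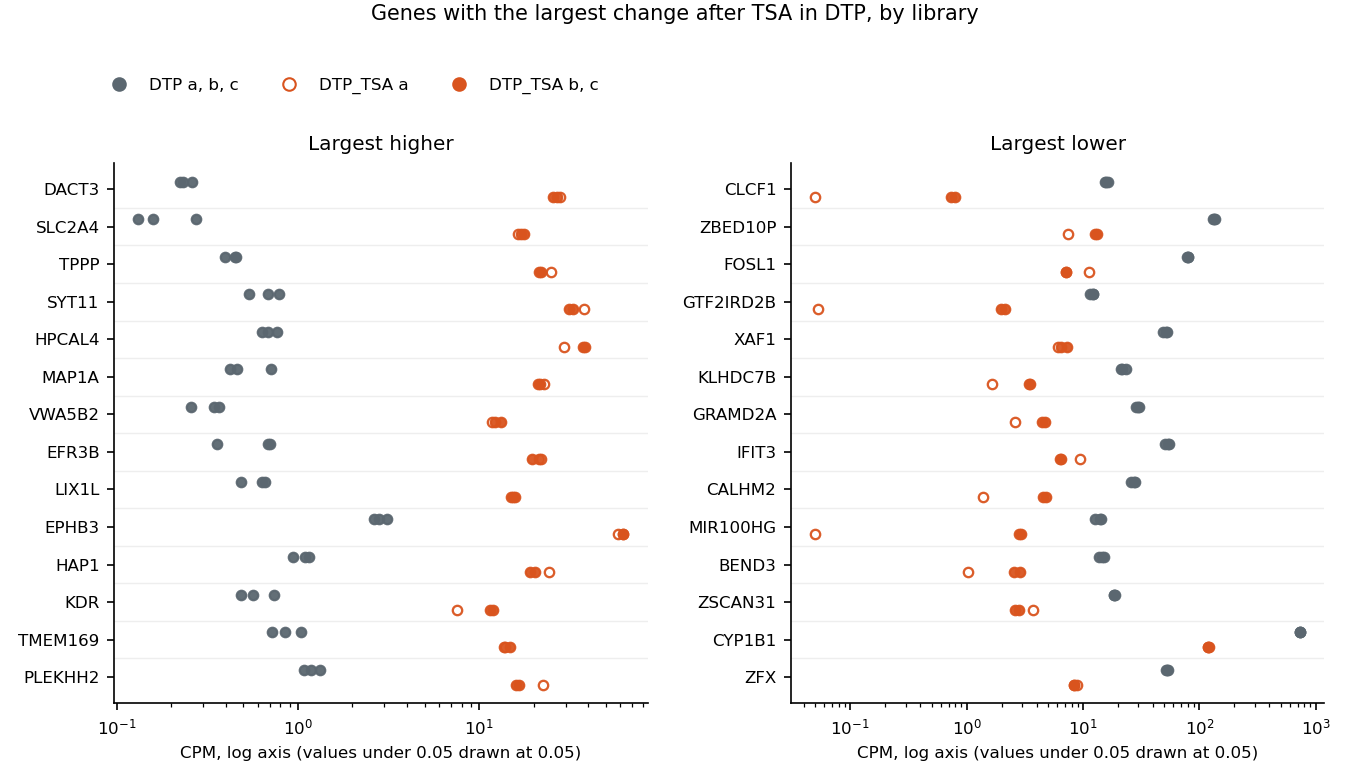
Expression of the named genes among the 15 with the largest increase and the 15 with the largest decrease, in CPM on a log axis, 1 point per library, with DTP_TSA a drawn as its own symbol. DACT3 lies between 0.224 and 0.262 CPM in DTP and between 25.6 and 27.9 CPM in DTP_TSA; for CLCF1, GTF2IRD2B and MIR100HG the point of DTP_TSA a falls well below those of DTP_TSA b and c.

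The promoters of the risen genes are shown because most of the 15 carry the letters of a GC box. The windows of 300 bases came from RefSeq annotation of GRCh38.p14 and matched 13 of the 15 genes; only the 250 bases before the start are printed, 5′ to 3′ on the gene's strand. Capitals mark GGGCGG or its reverse complement CCGCCC, the GC box searched on both strands, which DACT3 has 4 times in these bases and SYT11 does not have.
DACT3 (chr19:46661183-46661432, - strand): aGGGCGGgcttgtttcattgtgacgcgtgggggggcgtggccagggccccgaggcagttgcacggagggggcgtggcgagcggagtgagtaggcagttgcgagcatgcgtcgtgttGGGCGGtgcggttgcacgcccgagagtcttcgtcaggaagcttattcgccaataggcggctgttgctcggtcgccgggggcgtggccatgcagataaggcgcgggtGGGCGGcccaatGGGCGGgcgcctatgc
SYT11 (chr1:155859317-155859566, + strand): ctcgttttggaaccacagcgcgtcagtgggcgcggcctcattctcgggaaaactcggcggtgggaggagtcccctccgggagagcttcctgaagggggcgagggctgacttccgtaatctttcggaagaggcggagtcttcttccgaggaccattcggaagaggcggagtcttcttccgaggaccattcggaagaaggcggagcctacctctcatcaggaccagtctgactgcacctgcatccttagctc
The GC box letters were present in 11 of the 13 windows (84.6%), in 65.8% of the windows of tested genes and in 44.6% of all windows in the table. Among all tested genes the share was 70.9% for those that rose, 66.5% for those that fell and 62.0% for those not called. A match of letters is a description of the window and not evidence of a bound factor.

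Among the genes with the largest decreases, CLCF1, a cytokine of the interleukin-6 family, went from 16.3, 15.4 and 15.7 CPM in DTP to 0.0265, 0.733 and 0.797 CPM in DTP_TSA, a log2 change of −4.71 ± 0.33. FOSL1, a subunit of the AP-1 transcription factor, went from 78.5, 80.4 and 80.7 CPM to 11.3, 7.13 and 7.17 CPM, a log2 change of −3.26 ± 0.16. CYP1B1, a cytochrome P450 of the aryl hydrocarbon response, went from 735, 732 and 734 CPM to 121, 118 and 118 CPM, a log2 change of −2.62 ± 0.07. Groups that did not overlap were again a condition of the choice. DTP_TSA a sat apart from b and c for CLCF1 and FOSL1, in opposite directions. Others among the 15 were ZBED10P (−3.55), GTF2IRD2B (−2.98), XAF1 (−2.94), KLHDC7B (−2.89), GRAMD2A (−2.88), IFIT3 (−2.86), CALHM2, a calcium homeostasis channel (−2.85), MIR100HG, a microRNA host transcript (−2.71), BEND3, a repressor of bivalent genes (−2.69), ZSCAN31 (−2.63) and ZFX, an X-linked zinc finger activator (−2.62). MIR100HG had no read in DTP_TSA a, and without that library its log2 change was −2.24. Reads of GTF2IRD2B and ZBED10P may be shared with near-identical copies, so their values are uncertain. GC box letters were present in 3 of the 9 matched windows of these genes (33.3%).

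Histone genes and the acetylation machinery shifted too. Among 16 tested histone genes expressed outside S phase 7 rose and 2 fell (7 and none under spike-in scaling), including H2BC21 (1.06), H2BC5 (0.83) and the linker histone H1-10 (1.17); related histone genes can share reads.

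Among 12 lysine acetyltransferases 8 fell and 2 rose (1 without DTP_TSA a), with a median log2 change of −0.97 against −0.08 for all genes tested. KAT5, the catalytic subunit of the NuA4 complex, went from 49.6, 50.0 and 48.3 CPM to 10.1, 12.0 and 11.1 CPM, a log2 change of −2.15 ± 0.06. CREBBP (−1.56), KAT2A of the SAGA complex (−1.15) and KAT7 of the HBO1 complex (−1.03) also fell, and 7 of the 12 fell under spike-in scaling. Among 9 bromodomain readers 7 fell and none rose (6 and 1 without DTP_TSA a), with a median of −0.74, and 3 fell under spike-in scaling. BRD2 went from 197, 196 and 189 CPM to 69.7, 71.2 and 72.4 CPM, a log2 change of −1.45, and BRD9 of a SWI/SNF complex fell by 1.20, BRD1 by 0.75 and BRD8 by 0.74. Among 10 genes of P-TEFb and its HEXIM brake 6 fell and 1 rose (4 and none under spike-in scaling), led by MEPCE, the capping enzyme that holds the inhibitory 7SK RNA particle together (−2.14). LARP7, another 7SK protein, fell by 1.11, the kinase CDK9 by 0.63 and its cyclin CCNT2 by 0.70.

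The targets of TSA moved in both directions. Of 11 zinc-dependent deacetylases 4 rose and 5 fell (25.6% and 30.7% of all genes), with a median of −0.22. Under spike-in scaling 3 rose and 2 fell (24.6% and 14.3% of all genes), with a median of 0.04. HDAC11 (0.79) and HDAC3 (0.77) rose, and HDAC7 (−1.75) and HDAC9 (−1.04) fell. Of 7 sirtuins 2 rose, SIRT2 (0.81) and SIRT4 (1.90), and 3 fell, including SIRT5 (−1.06) and SIRT1 (−0.48); under spike-in scaling 3 rose and 1 fell. Of 27 genes of deacetylase corepressor complexes 6 rose and 13 fell (5 and 4 under spike-in scaling), with TBL1XR1 of NCoR (−1.59), the demethylase KDM1A of CoREST (−0.81) and the NuRD subunits MTA2 (−0.90) and MTA3 (−0.60) among those that fell. Of 23 genes of H3K9 methylation, HP1, DNA methylation and the HUSH complex 15 fell and 4 rose, with a median of −0.49. SETDB1, the H3K9 methyltransferase that silences retroelements, went from 33.6, 33.3 and 32.3 CPM to 8.65, 12.6 and 12.99 CPM, a log2 change of −1.53 ± 0.10. UHRF1 (−1.93), DNMT3A (−1.34) and the HP1 protein CBX3 (−0.73) fell too, and 8 of the 23 fell under spike-in scaling. Of 18 lysine demethylases 3 rose and 10 fell, with KDM3B (−1.33), RIOX2 (−0.74) and KDM1B (0.90) among them. Under spike-in scaling 3 fell, near the 14.3% of all genes.

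**Figure D2:**
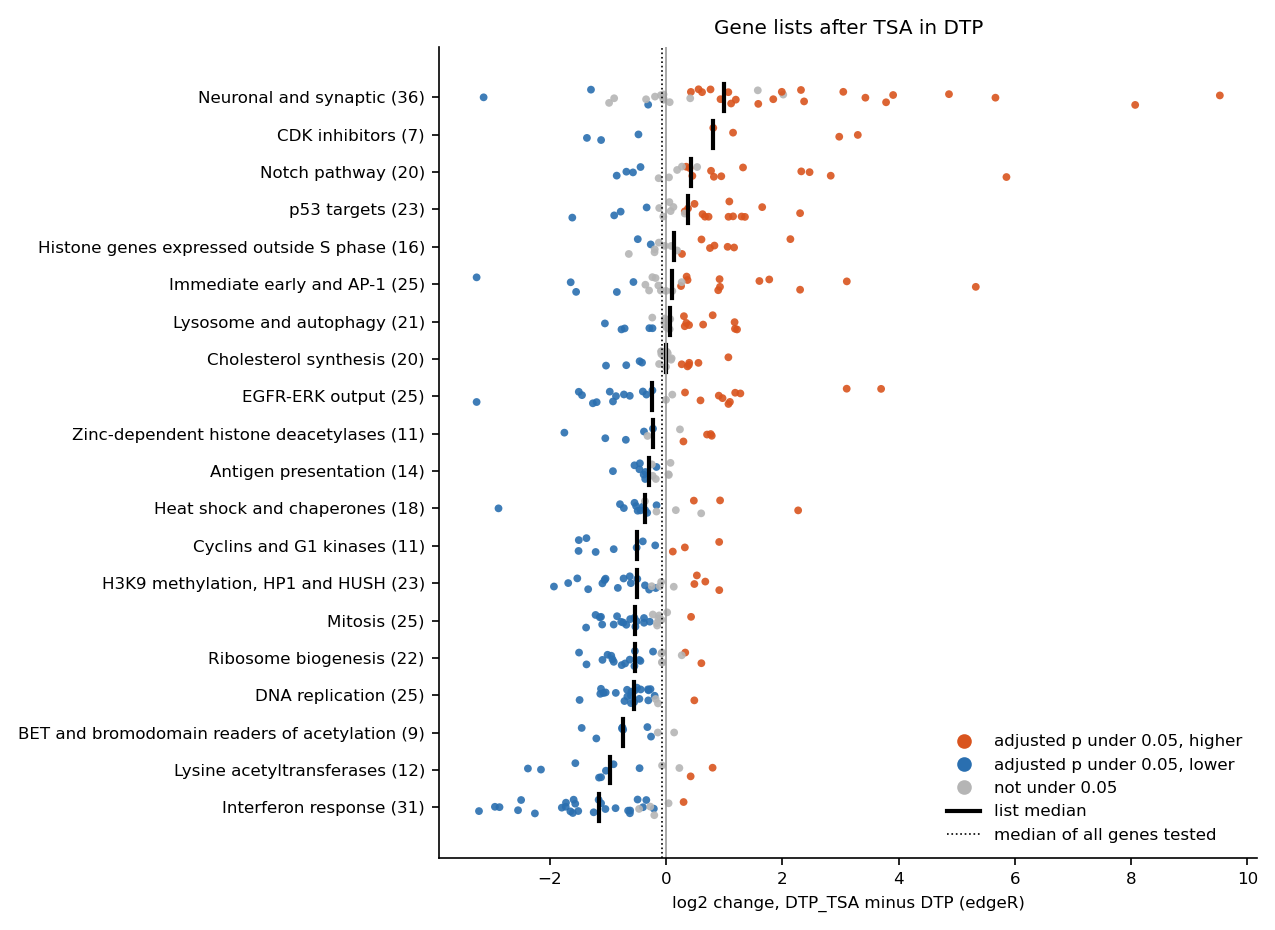
Log2 change under TSA in DTP cells for each tested member of the gene lists, 1 point per gene, orange (higher) or blue (lower) where adjusted p is under 0.05 and grey otherwise, with the median of each list as a bar and that of all genes (−0.08) as a line. Interferon response genes lie mostly left of the line with a median of −1.16, and neuronal and synaptic genes mostly right of it with a median of 1.01.

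Cell cycle genes gave a divided picture of inhibitors and drivers. Of 7 inhibitors of cyclin-dependent kinases 4 rose and 3 fell, as they did without DTP_TSA a and under spike-in scaling. CDKN1A (p21) went from 43.6, 44.7 and 45.1 CPM to 107, 98.3 and 92.1 CPM, a log2 change of 1.15 ± 0.09, whereas the parental change was 0.02 and the difference 1.14 ± 0.13 (adjusted p = 3.72e-06). CDKN2D (p19) went from 2.84, 2.45 and 3.00 CPM to 19.6, 23.3 and 22.5 CPM, a log2 change of 2.98. CDKN2B (p15), which is induced by TGF-beta, went the other way, from 127, 131 and 131 CPM to 45.1, 52.9 and 53.6 CPM (−1.36 ± 0.06), and CDKN1B (p27) fell by 1.12. In parental cells CDKN2B rose by 1.59, so that the changes differed by −2.95 ± 0.09 (adjusted p = 1.70e-12).

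Genes that drive the cycle fell more often than they rose. Of 11 cyclins, G1 kinases and E2F genes 8 fell and 3 rose (5 and 2 under spike-in scaling), with CCND1 and E2F3 at −1.50 each, CDK6 at −1.21 and CCNE2 at −0.90. Of 25 DNA replication genes 22 fell and 1 rose, among them the helicase subunits MCM7 (−1.04) and MCM2 (−0.86), the ribonucleotide reductase subunit RRM2 (−1.12) and GINS3 (−1.49); the median was −0.55, and 8 fell under spike-in scaling. Of 25 mitotic genes 17 fell and 1 rose (9 and none under spike-in scaling), with PLK1 (−1.37), CCNA2 (−1.12), CCNB1 (−0.77) and AURKA (−0.73) below DTP. MKI67, the proliferation marker Ki-67, went from 156, 163 and 153 CPM to 61.5, 77.6 and 81.3 CPM, a log2 change of −1.10 ± 0.18 (adjusted p = 7.03e-05) and of −0.84 (adjusted p = 0.0503, just over the threshold) under spike-in scaling without DTP_TSA a. In parental cells 11 of the 25 mitotic genes rose (30.8% of all genes did) and 5 fell (27.4%), and the difference between the cell states was called lower in DTP for 18 of the 25, against 23.0% of all genes. Ribosome biogenesis genes, which make and assemble ribosomal subunits, fell in 15 of 22 members and rose in 2 (8 and 1 under spike-in scaling), with NOP56 (−0.94), DKC1 (−1.005), NCL (−0.92) and PPAN (−1.37) among those that fell. Here parental cells showed 19 falls (27.4% of all genes fell), with a median of −1.04 against −0.54 in DTP. The difference was called higher in DTP for 14 of the 22 (15.3% of all genes).

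Interferon-stimulated genes had the lowest median of the 42 gene lists, −1.16, and 26 of the 31 fell while 1 rose. IFIT3, an antiviral RNA-binding scaffold, went from 55.1, 53.4 and 50.8 CPM in DTP to 9.36, 6.43 and 6.32 CPM in DTP_TSA, a log2 change of −2.86 ± 0.17 (adjusted p = 4.15e-10). IFIT2 went from 66.9, 65.8 and 69.1 CPM to 14.2, 10.5 and 10.2 CPM, a log2 change of −2.54. XAF1, an interferon-induced antagonist of the apoptosis inhibitor XIAP, went from 51.4, 48.5 and 53.2 CPM to 6.11, 7.34 and 6.42 CPM, a log2 change of −2.94. For IFIT2 every DTP_TSA library lay below every DTP library, which for IFIT3 and XAF1 was a condition of their choice above. USP18, which damps the interferon receptor, fell by 1.64, and OAS1, which makes the activator of RNase L, by 1.12. The member called higher was HERC5 (0.30), the ligase for ISG15, and it was not called without DTP_TSA a, where 27 members fell and none rose; HERC5 was named after its value was seen. Under spike-in scaling 21 of the 31 fell and none rose. IFIT and IFITM genes have close relatives with which reads can be shared.

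The promoters of 2 of these genes are shown because they differ in the interferon-stimulated element. Capitals mark a core of that element, GAAA followed by any 2 bases and another GAAA, or TTTC, any 2 bases and TTTC on the other strand, found 2 times in the 250 bases before the start of IFIT3 and not in those of XAF1.
IFIT3 (chr10:89327747-89327996, + strand): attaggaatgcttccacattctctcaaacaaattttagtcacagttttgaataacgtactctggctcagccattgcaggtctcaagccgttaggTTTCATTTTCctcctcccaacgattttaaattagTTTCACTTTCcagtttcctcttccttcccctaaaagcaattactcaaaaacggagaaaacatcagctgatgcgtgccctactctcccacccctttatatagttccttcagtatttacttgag
XAF1 (chr17:6755796-6756045, + strand): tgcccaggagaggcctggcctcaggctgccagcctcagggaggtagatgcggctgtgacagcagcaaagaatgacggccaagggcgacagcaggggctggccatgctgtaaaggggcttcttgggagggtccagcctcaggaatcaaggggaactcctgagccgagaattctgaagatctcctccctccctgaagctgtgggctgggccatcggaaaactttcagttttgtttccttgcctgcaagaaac
The core was present in 16 of the 23 windows matched to interferon list genes (69.6%), in 2.82% of the windows of tested genes and in 3.65% of all windows. Over all tested genes it was present in 3.66% of the windows of genes that fell, 1.89% of those that rose and 2.72% of those not called. The list was picked for its interferon response, so its share describes the list and is not evidence about TSA or about a bound factor.

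In parental cells 21 of the 31 rose (30.8% of all genes did) and none fell (27.4%), with a median of 1.12. The difference between the cell states was called lower in DTP for 27 of the 31, against 23.0% of all genes. IFIT3 (−0.26), IFIT2 (0.06) and USP18 (−0.04) were not called in parental cells. OAS1 went from 142, 137 and 135 CPM to 60.0, 66.0 and 65.0 CPM in DTP cells and had a log2 change of 1.42 in parental cells, a difference of −2.54. The starting levels were not alike: the list summed to 2464 to 2484 CPM in DTP and to 145 to 154 CPM in parental_DMSO. XAF1 had no read in 5 of the 6 parental libraries and stood at 0.0228 CPM in parental_TSA c. Its call in the difference thus rests on a fitted parental change. Genes of antigen presentation moved less, with 8 of 14 falling, none rising and a median of −0.30. PSMB8 (−0.54) and PSMB10 (−0.91) of the immunoproteasome and the peptide transporter TAP1 (−0.46) and its partner TAPBP (−0.36) fell. Under spike-in scaling 2 of the 14 fell, the share of all genes (14.3%). Among 15 restriction factors of L1, several of them interferon-induced, 9 fell and 1 rose (8 and 2 without DTP_TSA a, 3 and 3 under spike-in scaling), with the RNA editor ADAR (−0.78), the helicase MOV10 (−0.72) and APOBEC3F (−0.47) among those that fell.

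**Figure D3:**
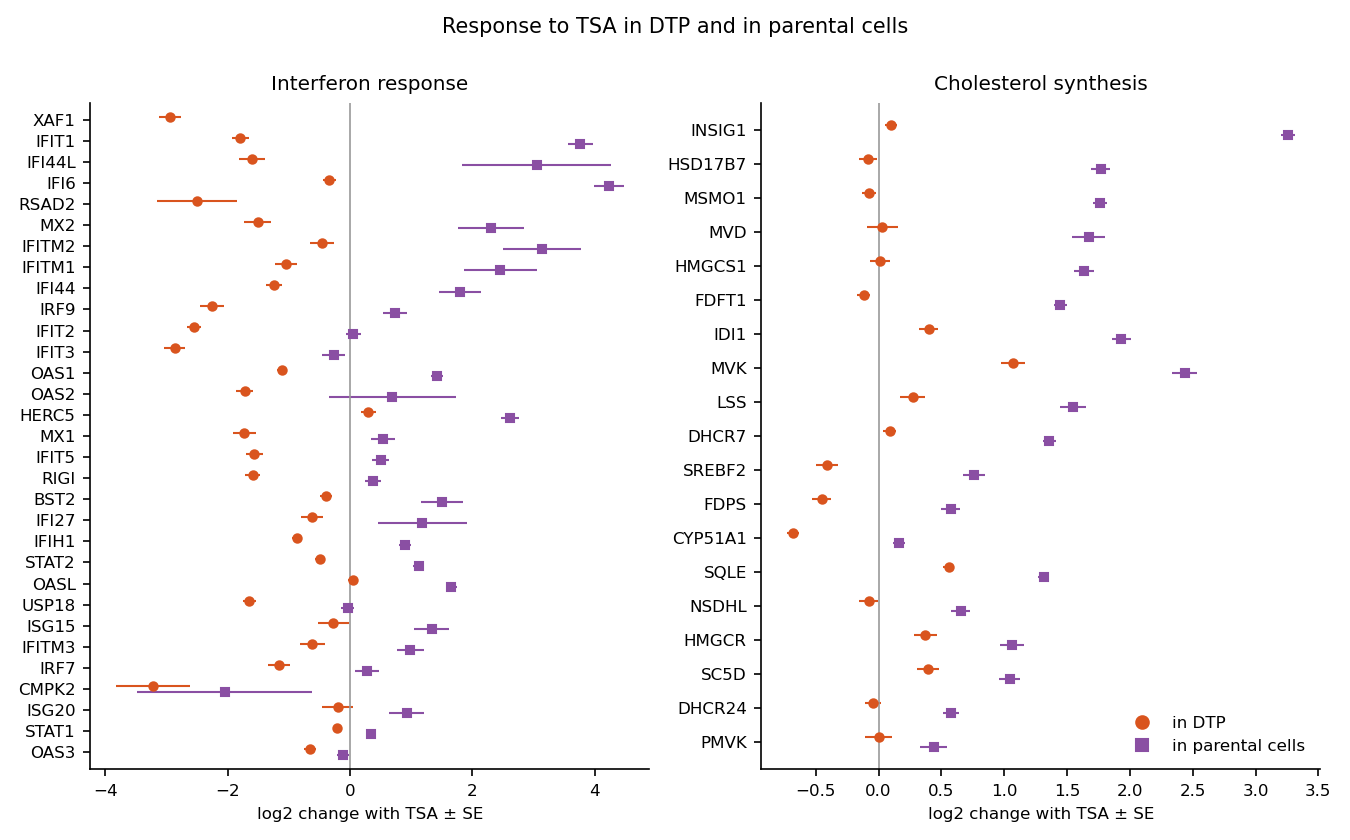
Log2 change under TSA of genes of the interferon response list (left) and the cholesterol synthesis list (right), with 1 point for DTP and 1 for parental cells per gene and bars for 1 SE; points for parental cells are left out where a parental group had no read. IFIT3 stands at −2.86 and XAF1 at −2.94 in DTP cells, and INSIG1 at 0.10 in DTP and 3.26 in parental cells.

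Cholesterol synthesis genes, which are driven by the SREBP factors, did not move together in DTP cells: 6 of 20 rose, 4 fell and the median was 0.01 (5 rose and 2 fell under spike-in scaling). In parental cells all 20 rose (30.8% of all genes did), with a median of 1.34. The difference was called lower in DTP for all 20, against 23.0% of all genes. INSIG1, which retains SREBP in the endoplasmic reticulum, stood at 60.1, 60.7 and 60.4 CPM in DTP and 59.9, 67.4 and 66.5 CPM in DTP_TSA, overlapping ranges (0.10, and 0.14 with adjusted p = 0.012 without DTP_TSA a). Its parental levels were 21.9, 23.2 and 22.7 CPM with solvent and 220, 220 and 209 CPM with TSA, a difference in log2 change of −3.16 ± 0.07 (adjusted p = 4.73e-14). Members that did change in DTP cells included the mevalonate kinase MVK (1.07), squalene epoxidase SQLE (0.56) and the lanosterol demethylase CYP51A1 (−0.68).

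Across all genes, the response of DTP cells differed from that of parental cells for 6750 of 17641 genes (38.3%), 2697 higher and 4053 lower in DTP. Of the 4508 genes that rose in DTP, 2914 also rose in parental cells and 315 fell there; of the 5407 that fell, 3158 also fell and 599 rose. Among the 16 genes with the clearest differences, TUBA1A, an alpha tubulin of growing neurons, stood at 151, 149 and 147 CPM in DTP and 149, 149 and 141 CPM in DTP_TSA while it rose in parental cells, a difference of −3.87. BHLHE40, a repressor of the circadian clock and of hypoxia responses, went from 57.5, 56.0 and 55.0 CPM to 14.5, 14.4 and 14.5 CPM, a log2 change of −1.95 against 1.69 in parental cells. ODC1, the first enzyme of polyamine synthesis, went from 203, 197 and 201 CPM to 395, 414 and 403 CPM, a log2 change of 1.01 against −1.36. For BHLHE40 and ODC1 the cell states thus moved in opposite directions, each past the test. ICAM1, an adhesion molecule, stood at 529, 537 and 519 CPM in DTP and 532, 601 and 593 CPM in DTP_TSA (0.12, adjusted p = 0.073, and 0.17, adjusted p = 0.013 without DTP_TSA a), whereas parental cells went from 51.6, 52.6 and 53.7 CPM to 297, 325 and 328 CPM. SERPINB2, a plasminogen activator inhibitor, fell by 0.71 in DTP and by 5.27 in parental cells, and CXCL8 (interleukin-8) rose by 1.90 in DTP against 0.15 in parental cells. Library parental_TSA a also stood apart from its group (highest correlation 0.977); without it and DTP_TSA a, 9355 genes differed.

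**Figure D4:**
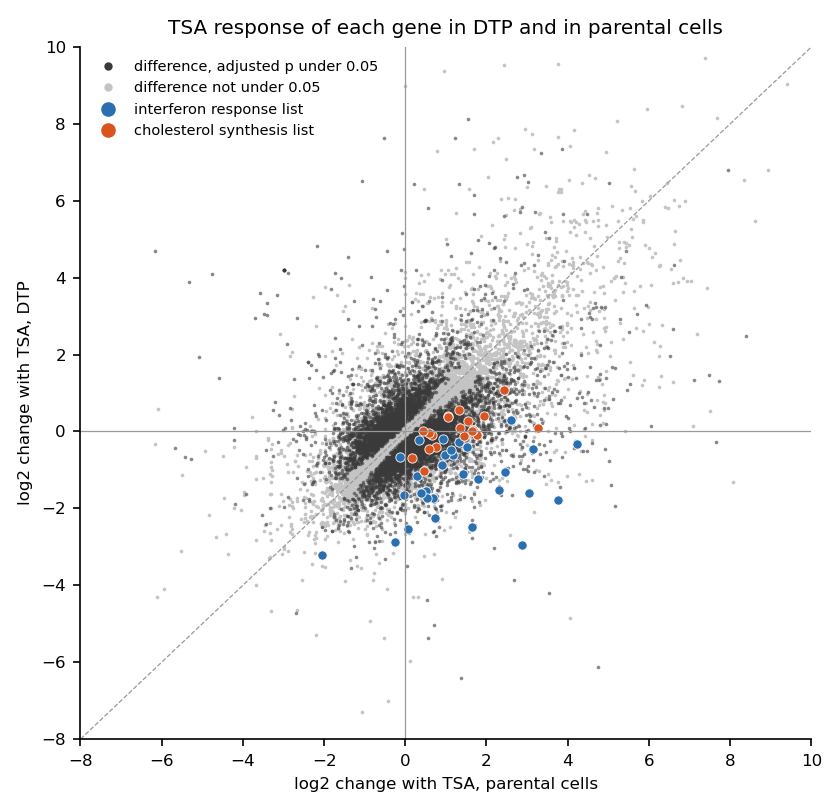
Log2 change under TSA in parental cells (x axis) against DTP cells (y axis), 1 point per tested gene, dark grey where the difference between the cell states had an adjusted p under 0.05 and light grey otherwise, with interferon response genes in blue and cholesterol synthesis genes in orange; changes are fitted values, also where a group had no read, and 7 genes lie outside the axes. The 6750 genes with such a difference include INSIG1, TUBA1A and BHLHE40 below the diagonal and ODC1 above it.

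Receptor and ERK pathway genes changed in both directions. EGFR, the target of erlotinib, stood at 587, 623 and 571 CPM in DTP and at 402, 376 and 391 CPM in DTP_TSA, a log2 change of −0.61 ± 0.32 that did not pass the test (adjusted p = 0.12) although the groups did not overlap; with both TSA libraries named a left out it did (−0.64, adjusted p = 3.88e-04). The difference from parental cells was 1.36 (adjusted p = 0.027). Of 16 receptor tyrosine kinases of the EGFR family and of bypass signalling 5 rose and 7 fell (6 and 2 under spike-in scaling): FGFR3 (2.41) and FGFR1 (0.61) rose, and EPHA2 (−1.26) and AXL (−0.71) fell. Of 25 genes of EGFR-ERK output 10 rose and 13 fell. AREG, the EGFR ligand amphiregulin, went from 1.70, 2.00 and 1.91 CPM to 15.6, 16.9 and 15.9 CPM, a log2 change of 3.11. ETV1, an ERK-regulated ETS factor, rose by 3.70. MYC went from 121, 120 and 122 CPM to 48.0, 42.9 and 42.4 CPM, a log2 change of −1.44. The ligand and the ETS factor thus lay above, and MYC, CCND1 and FOSL1 below, every DTP library.

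Among 25 immediate early and AP-1 genes 11 rose and 5 fell, with BTG2 (2.31), an antiproliferative gene, above and FOSL2 (−1.64), KLF6 (−1.55) and FOSL1 below. In parental cells 19 of them rose (30.8% of all genes did), and the difference was lower in DTP for 16 (23.0% of all genes). Of 20 genes of IGF signalling and of FOXO and PI3K brakes 8 rose and 8 fell (25.6% and 30.7% of all genes). Under spike-in scaling 6 rose and 4 fell (24.6% and 14.3% of all genes). The stress sensors SESN3 (3.52) and SESN1 (1.08) were above and the IGF-binding protein IGFBP5 (−1.02) below. Of 23 NF-kB and inflammatory genes 8 rose and 11 fell (25.6% and 30.7% of all genes). The chemokines CCL20 (5.03) and CXCL8 (1.90) rose, and the cytokine LIF (−2.22) and the NF-kB subunit NFKB1 (−1.27) fell.

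Genes of cell death and stress were divided as well. Of 23 p53 targets 13 rose and 4 fell, with a median of 0.38; SESN2 (1.36), RRM2B (1.30) and BTG2 rose and GADD45A (−1.61) fell, and the counts were 14 and 3 under spike-in scaling. Of 16 BCL2 family genes 3 rose and 7 fell (2 and 3 under spike-in scaling). BCL2L1, which encodes the survival protein BCL-XL, went from 125, 128 and 127 CPM to 57.1, 57.4 and 57.1 CPM, a log2 change of −1.15. The apoptosis effector BAK1 rose by 0.46, while the BH3-only genes BID (−0.76) and PMAIP1 (−0.38) fell. Of 14 death receptors, adaptors and inhibitors of apoptosis 8 fell and 2 rose (3 and 1 under spike-in scaling): CFLAR, the brake on caspase-8, fell by 1.61, FADD by 0.97 and BIRC2 by 0.60. The decoy receptor TNFRSF10C rose by 5.29, from 3 reads in the DTP libraries together to 122 in DTP_TSA. It could not pass the filter on low counts through DTP, so its place in the count is a description. Of 18 heat shock genes 3 rose and 11 fell, with HSPA2 (2.27) above and DNAJA1 (−0.79), HSPA8 (−0.49) and HSP90AB1 (−0.51) below. Under spike-in scaling 3 fell, near the 14.3% of all genes. Of 19 genes of ATF4 and endoplasmic reticulum stress 4 rose and 8 fell (3 and 4 under spike-in scaling), and the factors XBP1 (−1.92) and ATF4 (−0.91) and the phosphatase regulator PPP1R15A (−1.08) were among those that fell.

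Neuronal and synaptic genes rose in 21 of the 36 tested members of 50 and fell in 3, with a median of 1.01. Many genes of this kind are known targets of REST and its deacetylase partners, whose part in the rise was not tested. ENO2, the neuronal enolase, rose by 3.43, RAB3A, a GTPase of synaptic vesicles, by 3.91, and VAMP1 of the vesicle fusion machinery by 1.99. STMN4 and SNAP25 had no read in any DTP library and 195 and 100 reads in DTP_TSA, which makes them at least 92.6-fold and 32.3-fold higher when the DTP group is set at 3 reads in all (47.3-fold and 39.9-fold without DTP_TSA a); both were named after their values were seen. The filter on low counts passed some members through DTP_TSA alone, so the count among tested members is a description. In parental cells 19 rose (30.8% of all genes did) and 5 fell (27.4%), and the difference was called for 9 members higher (15.3% of all genes) and 6 lower (23.0%) in DTP. Of 15 tubulins 5 rose (25.6% of all genes did), including TUBB2B (1.33) and TUBD1 (0.85). A fall was called for 6 (30.7% of all genes), including TUBB (−0.70) and TUBA1C (−0.79). Under spike-in scaling 5 rose and 3 fell (24.6% and 14.3% of all genes). Tubulin genes resemble each other and reads can be split among them.

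Of 20 Notch pathway genes 11 rose and 4 fell (10 and 1 under spike-in scaling), with a median of 0.43. The target repressors HEY1 (2.83), HEY2 (2.47) and HEYL (5.86, from 4 reads in DTP to 236) and the receptor NOTCH3 (0.95) rose. HEYL could not pass the filter on low counts through DTP, so its place in the count is a description. Epithelial genes fell in 10 of 20 members and rose in 4: the splicing regulators ESRP1 and ESRP2 fell by 0.77 each, and the transcription factors GRHL1 (2.32) and ELF3 (0.69) rose. Of 19 mesenchymal genes 6 rose and 5 fell (5 and 3 under spike-in scaling). SNAI1, a repressor of E-cadherin, went from 1.57, 1.47 and 1.84 CPM to 18.8, 18.2 and 18.3 CPM, a log2 change of 3.50, and the matricellular gene CCN2 rose by 2.10. TGFB2 (−2.48) and THBS1 (−1.78) fell.

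Markers of other cell types were measured beside these lists. The summed level of 13 fibroblast markers was 609 to 676 CPM in DTP and 698, 528 and 564 CPM in DTP_TSA a, b and c. That of 12 leukocyte markers was 74.4 to 75.9 CPM against 51.7, 56.8 and 52.4 CPM, and that of 7 endothelial markers 35.2 to 36.1 CPM against 37.9, 35.6 and 36.6 CPM. Of 4 tested endothelial markers KDR (4.12) and VWF (2.20) rose and CDH5 (−0.66) fell, and without DTP_TSA a PECAM1 fell too (−0.57). Of 8 tested fibroblast markers COL6A3 rose (1.35, and 0.75 without DTP_TSA a); without DTP_TSA a PDGFRB also rose (2.25) and COL6A1 fell (−0.32). Of 7 tested leukocyte markers 1 rose and 2 fell (3 without DTP_TSA a), the myeloid integrin ITGAM (−1.70) among them. Lung epithelial markers summed to 160 to 166 CPM in DTP and to 220, 202 and 196 CPM in DTP_TSA; SOX2 (3.78) and KRT5 (0.53) rose and FOXA1 (−2.43) and TP63 (−1.16) fell. The part of other cell types in the changes above was not tested.

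Repeats were counted by subfamily and by family over their copies, so that a read from a repeat inside another transcript counts like one from the repeat's own promoter. Of 1102 tested subfamilies 134 rose (12.2%) and 44 fell (3.99%). The balance depended on the scaling: with repeat reads as library sizes 61 rose and 76 fell, the median log2 change of all subfamilies moving from 0.13 to −0.03, and under spike-in scaling 57 rose and 7 fell. LTR12 elements and the HERV9 proviruses they flank held the 4 largest increases among subfamilies with at least 1 CPM in the higher group. LTR12 went from 3.70, 3.45 and 3.37 CPM to 43.4, 68.0 and 67.9 CPM, a log2 change of 4.09 ± 0.15. LTR12D went from 4.33, 4.82 and 3.64 CPM to 65.0, 64.2 and 62.1 CPM (3.90 ± 0.15). LTR12C went from 32.4, 33.0 and 31.9 CPM to 173, 162 and 166 CPM (2.36 ± 0.05, adjusted p = 1.16e-15). LTR12 and LTR12D were chosen among subfamilies whose groups did not overlap. For LTR12C, a name always reported, every DTP_TSA library also lay above every DTP library. For LTR12 DTP_TSA a lay below the other 2 of its group. Of the 10 subfamilies of LTR12 and HERV9, 8 rose and none fell, with a median of 2.41 against 0.13 for all subfamilies; LTR12F (0.66, adjusted p = 0.072) and LTR12E (0.18) did not pass the test. The internal regions HERV9NC-int (3.52), HERV9-int (3.39) and HERV9N-int (2.45) rose with them. Without DTP_TSA a 8 of them rose (11.6% of all subfamilies), with repeat reads as library sizes 8, and under spike-in scaling 7 (5.07%). The rise was larger in DTP than in parental cells for 8 of the 10 (16.9% of all subfamilies), by 1.23 ± 0.07 for LTR12C and 2.79 ± 0.19 for LTR12; in parental cells 4 of the 10 rose (10.5%), with a median of 0.43.

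**Figure D5:**
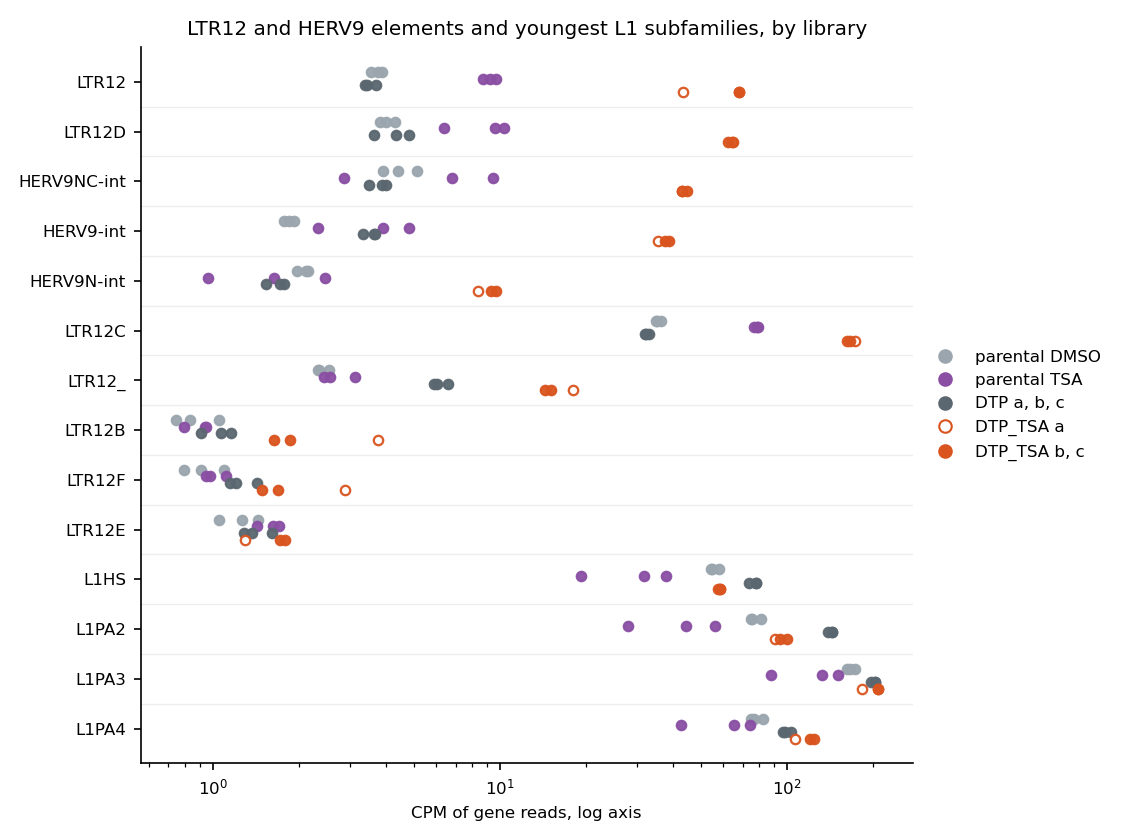
Level of named repeat subfamilies in CPM on a log axis, 1 point per library of DTP, DTP_TSA and the parental DMSO and TSA groups, with DTP_TSA a as an open symbol. In DTP cells, LTR12C moves from between 31.9 and 33.0 CPM to between 162 and 173 CPM, whereas L1HS goes from between 73.8 and 78.1 CPM to between 57.4 and 58.4 CPM.

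No young subfamily of L1, the autonomous retrotransposon, was called higher with TSA in DTP cells when all libraries were used. L1HS, the human-specific subfamily, stood at 77.8, 78.1 and 73.8 CPM in DTP and 58.4, 58.4 and 57.4 CPM in DTP_TSA, groups that did not overlap, with a log2 change of −0.40 ± 0.15 that missed the threshold (adjusted p = 0.085) and passed it with repeat reads as library sizes (−0.56, adjusted p = 0.012) and without both TSA libraries named a (−0.41, adjusted p = 1.60e-05). L1PA2 went from 144, 143 and 139 CPM to 90.8, 94.9 and 99.96 CPM, a log2 change of −0.58 ± 0.15 (adjusted p = 0.018), which was −0.40 (adjusted p = 0.42) under spike-in scaling without DTP_TSA a and just missed the threshold without DTP a, b or c (adjusted p = 0.056, 0.053 and 0.051). L1PA3 (−0.01) and L1PA4 (0.23) were not called with all libraries, but L1PA4 rose without both TSA libraries named a (0.29, adjusted p = 1.79e-04). Among the 9 youngest subfamilies L1PA2 alone changed with all libraries, against 1 higher and 2 lower without those libraries (23.3% and 10.5% of all subfamilies), and among 12 older primate subfamilies L1PA16 alone did (0.37), though not under spike-in scaling. In parental cells 7 of the 9 youngest fell (18.1% of all subfamilies did), with a median of −0.73 against 0.02 in DTP. The difference was called higher in DTP for 5 of them (16.9% of all subfamilies), with L1PA4 at 0.59 ± 0.19 (adjusted p = 0.034). L1PA16 was named after its value was seen.

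Repeats outside these groups changed in both directions. The rest of the 8 largest increases were LTR54 (2.58), MER41D (2.52) and MER9a1 (2.49), all long terminal repeats at under 15 CPM. The largest decreases were the simple repeat (GCCCCA)n (−2.58), LTR1B1 (−1.59), ORSL-2a (−1.52), LTR2752 (−1.26), LTR6B (−1.10), MER97d (−1.02), L1P4 (−1.01) and HERVL18-int (−0.99). Under spike-in scaling without DTP_TSA a ORSL-2a, MER97d, L1P4 and HERVL18-int were not called; leaving out any DTP library ended the call of L1P4, and leaving out DTP a or c that of LTR6B. Of 17 AluS and 4 AluJ subfamilies none was called, and of 20 AluY subfamilies 2 rose and 1 fell; without DTP_TSA a 1 AluS fell and 1 AluY rose. Of 6 SVA elements 2 rose (1 without DTP_TSA a or under spike-in scaling, none with repeat reads as library sizes). Of 23 THE1 and MST elements 6 rose and none fell, against 1 rising under spike-in scaling and 1 rising and 1 falling with repeat reads as library sizes. Of 13 subfamilies of LTR5 and HERVK 3 rose and none fell (3 and 1 without DTP_TSA a, 2 and none under spike-in scaling). Of 6 subfamilies of LTR7 and HERVH LTR7 fell in DTP cells (−0.76, not called without DTP_TSA a and named after its value was seen). In parental cells 4 of the 6 rose (10.5% of all subfamilies did).

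Of 57 repeat families 9 rose (15.8%) and 2 fell (3.51%), but with repeat reads as library sizes 1 rose and 6 fell (1 and 9 with DTP_TSA a also left out), and ERV1 (−0.0070) and L2 (−0.030) were then below 0. The telo family of satellites rose by 1.23 ± 0.19, and the retroviral families ERVL, ERVK and ERV1 by 0.23, 0.19 and 0.16. L2 (0.14), MULE-MuDR (0.57), Helitron (0.44), Penelope (1.00) and TcMar? (1.57) rose, and hAT-Tip100 (−0.31) and TcMar-Mariner (−0.23) fell. Without DTP_TSA a, L2, Helitron, Penelope and TcMar? were not called. The calls depended on scaling and method: with DTP_TSA a left out and spike-in reads as library sizes edgeR called none of the 57 (5 at an unadjusted p under 0.05). Standard errors were larger there than with TMM scaling without DTP_TSA a. ERVL went from 0.21 ± 0.03 to 0.36 ± 0.17 and telo from 1.15 ± 0.21 to 1.30 ± 0.33 (adjusted p = 0.080). hAT-Tip100 moved toward no change, from −0.23 ± 0.04 to −0.08 ± 0.20. DESeq2 and limma voom on all libraries called 26 and 21 families. The count of changed subfamilies was 91, 95 and 70 without DTP a, b and c, and that of families 4, 7 and 5, against 178 and 11 with all libraries, and 22 families were called without DTP_TSA b.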

How the data were processed

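The RNA-seq libraries were quantified by the authors into expected counts per gene, repeat and ERCC spike-in transcript, with Salmon per the submitters' processing notes; no source used here gives its version, the genome build, the annotation or whether counting used strand. The deposited expected counts were rounded to whole numbers. Gene IDs matched a symbol in RefSeq tables for 27814 of 30727 rows, and rows without a symbol held 0.247% of gene reads. Each table had 3 columns that match no sample, which were not used. All 18 libraries in 6 groups of 3 were fitted together with edgeR 4.0.16 (R 4.3.3): default filter on low counts, TMM scaling, quasi-likelihood F test, contrasts DTP_TSA minus DTP, parental_TSA minus parental_DMSO and their difference, Benjamini-Hochberg adjustment over all features, threshold 0.05. The spread was thus estimated over all 6 groups, those given erlotinib for 24 hours and carboplatin for 72 hours included. Repeats used the library sizes and TMM factors of the gene table. CPM are counts divided by TMM-scaled gene library sizes, not per length. SE is the log2 change divided by the root of F.

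Depth was 32139343 to 84650552 gene reads in the 6 DTP and DTP_TSA libraries, which covers counting error only. The 42 gene lists (743 genes, 740 found, 694 tested), the 15 repeat lists and the members were chosen with earlier results of these data known. Genes named were the 15 largest log2 changes per direction among genes with at least 10 CPM in the higher group, called with and without DTP_TSA a and not overlapping; up to 4 members per list with the smallest p; a few fixed names such as CDKN1A, EGFR and SETDB1; the 8 largest subfamilies per direction at 1 CPM or more; all families called; and 8 genes per direction for the difference between cell states. Unnamed loci (LOC, LINC, open reading frames, clones) were passed over; some genes chosen this way are not reported here. Alternatives used DESeq2 1.42.0, limma 3.58.1 (voom with library quality weights), other scalings and filters, a replicate block and leaving out each library in turn; those that combine a scaling or the block with leaving out DTP_TSA a were added after seeing the data. The fit was tested on simulated data. Promoter windows came from RefSeq (GRCh38.p14). Correlations of same-letter deviations over 11086 genes between DTP and DTP_TSA were −0.26, 0.03 and −0.27 for a, b and c. Between the parental groups they were 0.38, 0.285 and 0.009. Different-letter pairs reached 0.298 in DTP and 0.23 in parental cells. DTP_TSA a stands apart from its group, so these values cannot settle whether replicate letters pair the samples. Figures were drawn with matplotlib 3.10.9.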

Additional observations from a re-analysis of the deposited data

Results flagged for a closer look

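Each result here is a difference between the TSA effect in DTP cells and that in parental cells, tested by the difference contrast of the edgeR fit (adjusted p under 0.05), and given as the log2 change in DTP minus that in parental cells. The contrast called 6750 genes.

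The effect was higher in DTP for SERPINB2 (4.57), ODC1 (2.37), CXCL8 (1.75), POLR3G (1.73), a subunit of RNA polymerase III, HMGA2 (1.63), a chromatin architectural protein, PTGER4 (1.60), a prostaglandin receptor, RHPN2 (1.44) and SOWAHC (1.22). HMGA2 had a log2 change of −0.34 in DTP and −1.96 in parental cells, so its difference is a smaller fall. It was lower in DTP for TUBA1A (−3.87), BHLHE40 (−3.64), INSIG1 (−3.16), CDKN2B (−2.95), PBXIP1 (−2.50), YPEL5 (−2.48), ICAM1 (−2.47) and GABARAPL1 (−2.04). GABARAPL1, an autophagy gene of the ATG8 family, went from 212, 200 and 204 CPM to 122, 120 and 120 CPM in DTP and from 25.3, 24.9 and 22.2 CPM to 63.4, 56.4 and 55.0 CPM in parental cells.

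Among repeat subfamilies the effect was higher in DTP for HERV9NC-int (3.01), LTR12 (2.79), LTR12D (2.78), HERV9N-int (2.72), HERV9-int (2.38), MER41D (1.71), LTR54 (1.67), LTR12C (1.23) and L1PA4 (0.59), and lower for LTR2752 (−0.83).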

How the results depend on the processing

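Counts under spike-in scaling differed with and without DTP_TSA a, the library that stands apart in its spike-in and rRNA reads. With all libraries and spike-in reads as library sizes edgeR called 29 genes (726 at an unadjusted p under 0.05), 1 subfamily (11), 0 families (0; DESeq2 called 26 and voom 21 under their own scaling) and 0 genes for the difference between cell states (192). With DTP_TSA a also left out, an alternative chosen after seeing the data, it called 7028 genes, 64 subfamilies, 0 families and 2717 genes for the difference. Of 238 named results 189 kept direction and side of the threshold under every other alternative tried than spike-in library sizes with all libraries, and 9 did so under every one. Reversals occurred in 4 families: with spike-in library sizes ERV1 was −0.24, ERVK −0.29, ERVL −0.22 and L2 −0.31; with repeat reads as library sizes ERV1 was −0.0070 and L2 −0.030, and L2 was −0.0027 with DTP_TSA a also left out. The cause was not tested.

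Against 9915 genes, 178 subfamilies, 11 families and 6750 genes for the difference, DESeq2 called 287 subfamilies and 26 families, edgeR with DESeq2 size factors 18 families, limma voom with quality weights 435 subfamilies, 21 families and 11537 genes for the difference, the compared groups fitted alone 95 subfamilies and 5 families, repeat reads as library sizes 7 families, and leaving out both TSA libraries a 380 subfamilies. Leaving out 1 library at a time gave 8964 to 10738 genes, 70 to 225 subfamilies, 4 to 22 families, 5748 to 7850 genes for the difference, and a log2 spike-in ratio of 0.04 to 3.79. Whether replicate letters pair DTP with DTP_TSA was not settled by the correlations above. With the replicate block 9758 genes, 158 subfamilies, 15 families and 6641 genes for the difference were called. With the block and without DTP_TSA a 7 families were called. Repeats of low level rest on few reads per library, and DTP_TSA a had 902 subfamilies with a read against 1357 and 1341 in b and c.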

Other observations

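Metabolic genes of DTP cells, from lists of the same kind, also moved with TSA. Of 20 genes of glycolysis and hypoxia 6 rose and 11 fell, with a median log2 change of −0.24 against −0.08 for all genes; ALDOC, the aldolase of brain (1.55), and the regulatory kinase PFKFB4 (1.05) rose, the glucose transporter SLC2A1 (−0.78) and the enolase ENO1 (−0.44) fell, and 2 of the 20 fell under spike-in scaling without DTP_TSA a. SLC2A1 thus fell where SLC2A4 rose. Of 19 aldehyde dehydrogenases, a family used to mark tolerant cells, 4 rose and 9 fell (4 and 4 under spike-in scaling without DTP_TSA a): ALDH1A3 (−1.24), ALDH3B1 (−0.95) and ALDH1B1 (−0.47) fell and ALDH6A1 (1.29) rose.

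Of 21 lysosome and autophagy genes 9 rose and 5 fell (6 and 3 under spike-in scaling without DTP_TSA a), with the sialidase NEU1 (1.19) and the lysosomal channel MCOLN1 (1.22) above and the autophagy receptor SQSTM1 (−1.05) and GABARAPL1 (−0.77) below DTP. Of 3 tested metallothioneins MT1X (1.40) and MT1F (1.12) rose. MT2A was not called (−0.19) and fell without both TSA libraries named a (−0.27, adjusted p = 0.032). The summed level of the 9 metallothioneins listed was 107 to 111 CPM in DTP and 122, 107 and 106 CPM in DTP_TSA a, b and c. Of 13 protein-coding genes of the mitochondrial genome 4 fell, against 30.7% of all genes: ND6 by 0.62, ND5 by 0.54, ND4 by 0.48 and ND4L by 0.43. Mitochondrial reads were 3.27% to 3.43% of gene reads in DTP and 2.35%, 3.58% and 3.25% in DTP_TSA a, b and c; without DTP_TSA a ND5 and ND4L fell, by 0.33 and 0.24, and under spike-in scaling none was called by edgeR.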
